A study of Mus musculus with 36 samples.

Results

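Most mitochondrial proteins are encoded in the nucleus, made in the cytosol and brought into the organelle through translocases of the outer membrane (TOM) and the inner membrane (TIM). Inside, targeting presequences are cut off, chaperones fold the arriving proteins, and proteases remove those that misfold or are no longer needed. Grown oocytes hold very many mitochondria and are largely silent in transcription, so their messenger RNA pool mainly reflects transcripts stored during growth. The mRNAs described here come from 34 mouse genes of this machinery, listed by name and grouped by role, of 21968 genes in the count table. All 34 were found in the table, and all 34 passed the filter on low counts that left 12812 genes for testing.

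The libraries are single oocytes at the germinal vesicle stage, the stage of the grown oocyte before meiosis resumes, from mice labelled Drp1_KO (18 oocytes of 4 mice, a to d) and Drp1_WT (18 oocytes of 5 mice, 1 to 5). Drp1, the product of Dnm1l, is a GTPase that constricts and divides mitochondria. The labels name the genotype and the mouse but give no deleted exon, no Cre driver, no strain and no age, so how the deletion was made and in which cells is not known here. Each oocyte was lysed whole in its own tube and sequenced from full-length cDNA amplified with the SMARTer kit, without molecular identifiers. The mouse is the replicate throughout, since oocytes of a mouse share their source.

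Levels are CPM, the share of a library's counts that fall in a gene put on a common scale, so they do not give the number of mRNA molecules in an oocyte. For each mouse the counts of its oocytes were added and scaled by TMM, a method that evens out differences in library composition. An oocyte's total lay between 3178509 and 7406895 counts, and between 11350 and 14659 genes had a count. The 14 oocyte markers summed to 27402 to 30818 CPM in Drp1_KO mice and 28519 to 32912 CPM in Drp1_WT mice, and 0 markers of any list differed between labels at an adjusted p under 0.05. Markers of granulosa and cumulus cells (10 of 14 passed the filter; Ptx3 at 0 throughout) summed to 83.1 to 90.7 CPM in Drp1_KO mice and 73.8 to 97.4 CPM in Drp1_WT mice. Most of this was Cyp19a1, with means of 67.4 CPM in Drp1_KO and 57.1 CPM in Drp1_WT. Log2 fold changes of Drp1_KO over Drp1_WT ran from -1.70 for Cyp11a1 (1.40 CPM in Drp1_KO, 4.63 CPM in Drp1_WT) to 0.88 for Inhbb (1.66 CPM in Drp1_KO, 0.924 CPM in Drp1_WT). For Cyp11a1 the unadjusted p was 0.00836 and the adjusted p 0.499 (edgeR's quasi-likelihood test).

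Some features of the libraries touch the results. Dnm1l itself, the gene named in the genotype, stood at 217, 220, 207 and 185 CPM in Drp1_KO mice a to d, against 292, 280, 203, 133 and 286 CPM in Drp1_WT mice 1 to 5 (log2 fold change -0.21, SE 0.19, unadjusted p = 0.308 by edgeR's quasi-likelihood test). The groups overlapped. Among single oocytes, the 5 of tubes 11 to 15 labelled Drp1_WT had 116 to 156 CPM, below the 234 to 322 CPM of the other 13 labelled Drp1_WT, while oocytes labelled Drp1_KO had 144 to 274 CPM. Reads over the whole gene do not check a deletion of unnamed exons, so the direction of any difference below holds for libraries as labelled. Next, tube 10 of Drp1_KO mouse b stood apart: its oocyte markers summed to 15280 CPM, against 23705 to 38618 CPM in the other 35 oocytes, and its immune and blood markers to 606 CPM, against 2.08 to 8.84 CPM. Most of its oocyte marker sum was Dppa3 (10822 CPM) and Oosp1 (3273 CPM). All other oocyte markers were lower there than in any Drp1_WT oocyte, among them Gdf9 (126 CPM), Zp3 (13.5 CPM), Mos (2.45 CPM) and Figla (0 CPM). Summed per mouse, the immune and blood markers (2 of 8 passed the filter) were 5.77 to 126 CPM in Drp1_KO and 3.34 to 5.53 CPM in Drp1_WT, and those of stroma, endothelium and epithelium (6 of 10 passed; Cdh5 at 0 throughout) 28.9 to 50.7 CPM in Drp1_KO and 39.2 to 58.3 CPM in Drp1_WT. Lastly, the library index numbers 60 to 77 belong to Drp1_KO and 42 to 59 to Drp1_WT, so index number and label cannot be told apart.

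The promoters of 4 members are shown because their values are described below and because the heat shock element, the binding motif of the heat shock factors that induce chaperones, lies in some and not in others. Each stretch is the 250 bases before the annotated start, on the gene's strand, from RefSeq (GRCm38.p6); 29 members had a window of 250 bases before to 50 after the start. Capitals mark the letters GAANNTTC or TTCNNGAA (heat shock element) and CCGGAAG (core of the ETS motif), searched on both strands.
Hspe1, chr1:55087898-55088147, plus strand: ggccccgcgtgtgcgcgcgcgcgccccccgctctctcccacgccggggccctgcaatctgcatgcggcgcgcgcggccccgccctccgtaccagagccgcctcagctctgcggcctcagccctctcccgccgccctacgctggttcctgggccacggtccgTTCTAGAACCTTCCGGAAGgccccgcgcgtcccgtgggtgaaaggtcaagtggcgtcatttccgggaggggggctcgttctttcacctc
Timm9, chr12:71136676-71136925, minus strand: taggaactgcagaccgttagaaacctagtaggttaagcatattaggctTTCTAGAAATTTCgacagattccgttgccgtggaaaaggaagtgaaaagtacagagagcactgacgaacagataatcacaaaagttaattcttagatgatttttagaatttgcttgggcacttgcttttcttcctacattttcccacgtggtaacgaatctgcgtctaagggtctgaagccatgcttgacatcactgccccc
Clpx, chr9:65294010-65294259, plus strand: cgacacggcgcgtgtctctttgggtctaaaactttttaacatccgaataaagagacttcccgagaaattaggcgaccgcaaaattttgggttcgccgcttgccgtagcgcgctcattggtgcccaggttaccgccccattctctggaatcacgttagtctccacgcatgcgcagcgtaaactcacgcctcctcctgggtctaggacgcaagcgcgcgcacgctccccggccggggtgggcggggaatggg
Lonp1, chr17:56626904-56627153, minus strand: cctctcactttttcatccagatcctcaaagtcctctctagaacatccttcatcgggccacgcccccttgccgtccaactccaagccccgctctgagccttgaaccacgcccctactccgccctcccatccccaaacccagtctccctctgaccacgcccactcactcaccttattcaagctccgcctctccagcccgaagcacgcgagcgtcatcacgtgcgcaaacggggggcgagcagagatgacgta

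In Hspe1 the heat shock letters occurred at 3 overlapping places, starting 89, 84 and 79 bases before the annotated start. Those starting 84 and 79 bases before it overlapped matches of the ETS core. Hspe1 and Hspd1, which encode the co-chaperonin HSP10 and the chaperonin HSP60, are transcribed away from each other, and a window of Hspd1 shares 285 bases with that of Hspe1. The heat shock letters occurred in the windows of 8 of 29 members (Clpp, Hspd1, Hspe1, Timm10, Timm13, Timm9, Tomm20 and Tomm22) and in 17% of the windows of all 27025 genes. The ETS core occurred in 15 of 29 members and 9.93% of all genes. The NRF1 core and the ATF4 and CHOP element TGATGCAAT occurred in 0 of 29 members, and in 1.07% and 0.222% of all genes. A match describes letters in a window, and the absence of one says only that these letters are not in it.

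Across the 34 members, 0 differed between Drp1_KO and Drp1_WT at an adjusted p under 0.05 (edgeR, Benjamini-Hochberg over all 12812 genes), and the smallest adjusted p was 0.499, for Clpx. Over all genes the same rule called 2 genes, or 0.0156%. DESeq2 and limma-voom also called 0 members. At an unadjusted p under 0.05 there were 4 members, 11.8% of them, against 9.69% of all genes: Timm21 and Hspe1 higher in Drp1_KO (4.89% of all genes were higher at that level), and Clpx and Afg3l2 lower (4.81% of all genes were lower). That share is near the background. In 0 members did the mice of the 2 labels separate, against 1.27% of all genes with every Drp1_KO mouse above every Drp1_WT mouse and 1.29% with every Drp1_KO mouse below. The median log2 fold change of the members was 0.00, beside -0.00 over all genes, with 17 members positive and 17 negative. Their median absolute log2 fold change was 0.15, beside 0.18 over all genes. Standard errors ran from 0.10 for Grpel1 to 0.58 for Tomm5, with a median of 0.16.

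**Figure D1:**
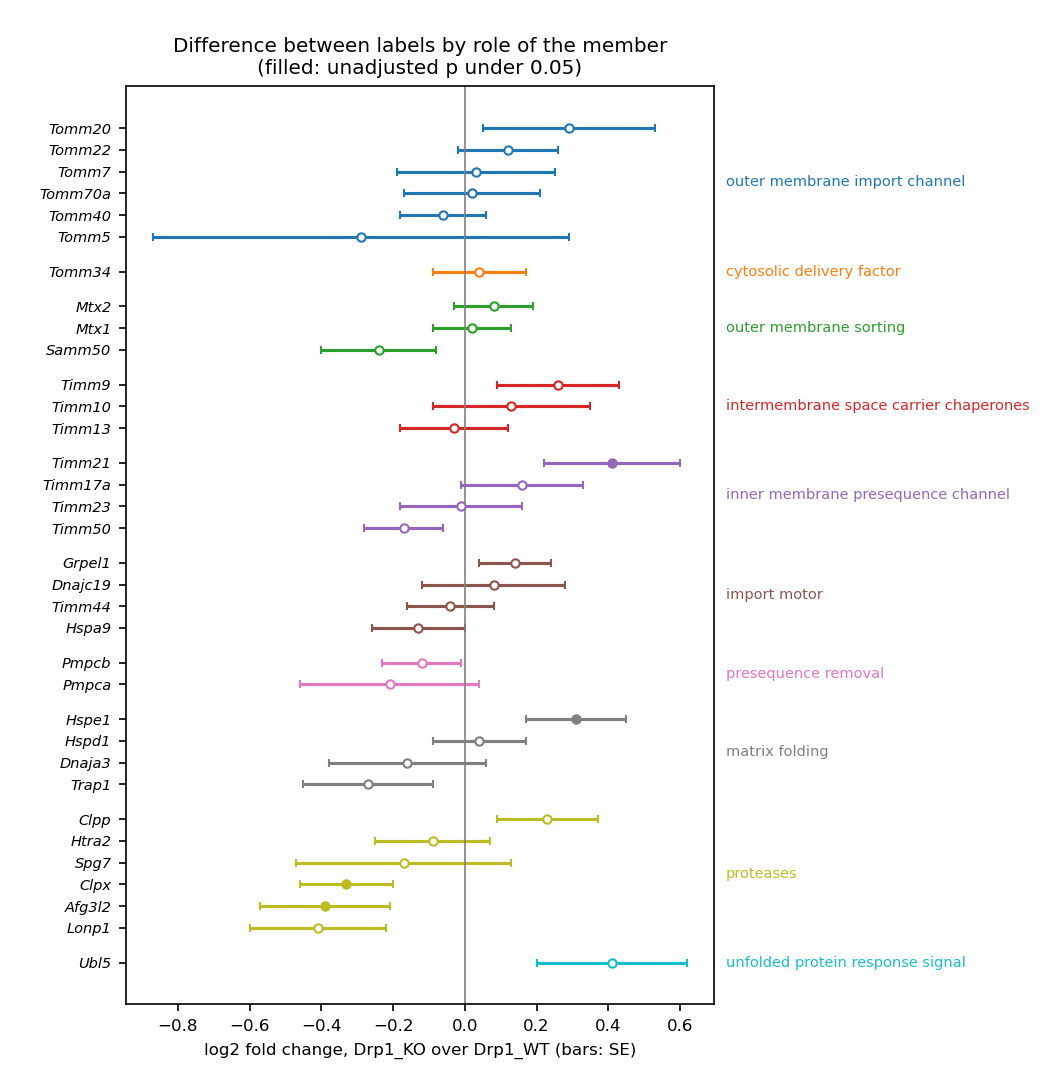
Log2 fold change of Drp1_KO over Drp1_WT (horizontal axis; points are estimates, bars are SE, over 4 and 5 mice) for the 34 members grouped by role; filled points have an unadjusted p under 0.05 and 0 members passed the adjusted threshold. The proteases Lonp1 (-0.41), Afg3l2 (-0.39) and Clpx (-0.33) lie at the low end, and Timm21 (0.41), Ubl5 (0.41) and Hspe1 (0.31) at the high end.

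The members covered a very wide range of levels. Per kilobase of exon, Timm9 was the most abundant, with 150 CPM per kb in Drp1_KO mice and 125 in Drp1_WT mice. It was followed by Tomm22 (111 in Drp1_KO, 102 in Drp1_WT), Timm17a (106 in Drp1_KO, 94.6 in Drp1_WT) and Hspe1 (90.9 in Drp1_KO, 73.5 in Drp1_WT). At the other end, Tomm5, Tomm20, Tomm70a, Spg7 and Pmpca were each below 1 CPM per kb in both labels. On the CPM scale Timm17a alone made up 23.0% of the members' summed level, and Timm17a and Timm9 together 40.1%. The sum over all 34 was 3449, 3382, 3251 and 4117 CPM in Drp1_KO mice a to d, against 3124, 3349, 3302, 2987 and 3762 CPM in Drp1_WT mice 1 to 5. These ranges overlapped, and the mean was 7.41% higher in Drp1_KO. As a log2 ratio this difference was 0.10. It was 0.01 when scaled by library size only, 0.02 without mouse d and 0.03 without Drp1_WT tubes 11 to 15. The largest values among the alternatives were 0.15, without mouse c or without mouse 5.

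**Figure D2:**
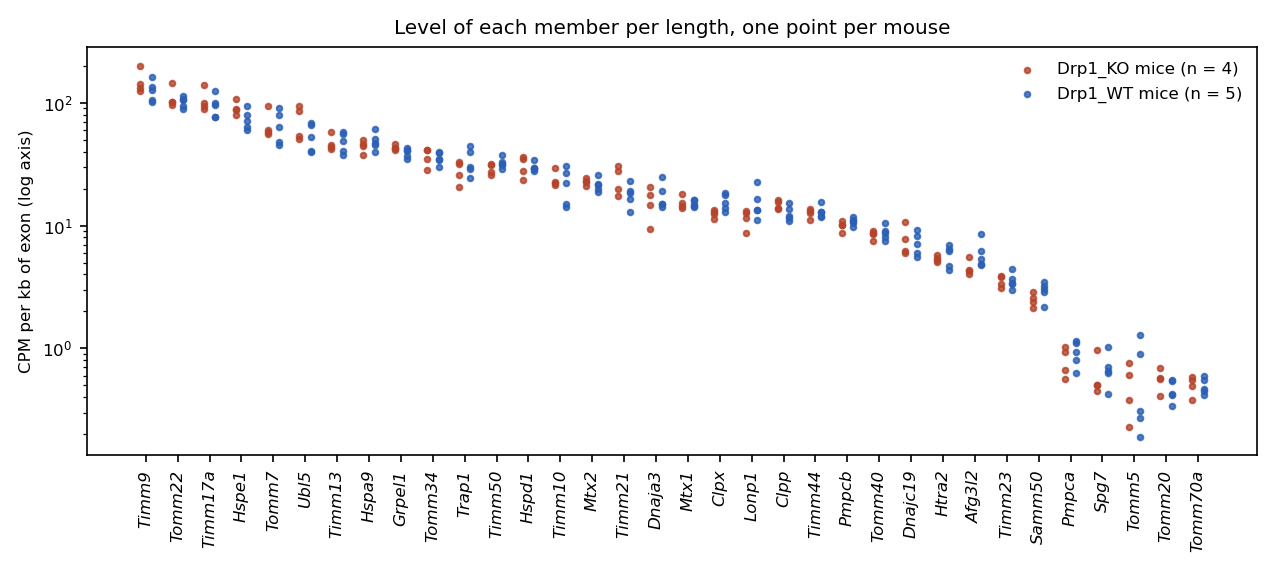
Level of each member in CPM per kb of exon (vertical log axis), ordered from the most to the least abundant, with a point for each of 4 Drp1_KO mice (left of each pair) and 5 Drp1_WT mice (right). Timm9, Tomm22 and Timm17a stand at the top, Tomm5, Tomm20 and Tomm70a at the bottom, and the points of the 2 labels overlap for every member.

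Proteins enter through the TOM complex, in which Tomm40 forms the channel, Tomm20, Tomm22 and Tomm70a serve as receptors, and Tomm5 and Tomm7 are small accessory subunits. These 6 members summed to 304 ± 59.2 CPM in Drp1_KO mice and 289 ± 34.6 CPM in Drp1_WT mice (SD, n = 4 and n = 5). Tomm22, the most abundant of them per length, had 166, 158, 167 and 239 CPM in Drp1_KO mice a to d, against 146, 173, 176, 155 and 189 CPM in Drp1_WT mice 1 to 5. Mouse d was the highest of all 9, while the other mice of both labels overlapped (log2 fold change 0.12, SE 0.14, unadjusted p = 0.392). The channel mRNA, Tomm40, averaged 37.9 ± 3.03 CPM in Drp1_KO and 39.6 ± 5.07 CPM in Drp1_WT. Tomm7, which helps to set the stability of the complex, averaged 75.4 ± 20.4 CPM in Drp1_KO and 73.7 ± 22 CPM in Drp1_WT. The other receptors were low per length. Tomm20 had 2.74 ± 0.554 CPM in Drp1_KO and 2.23 ± 0.442 CPM in Drp1_WT. Tomm70a, the receptor for carrier precursors, had 4.91 ± 0.882 CPM in Drp1_KO and 4.86 ± 0.754 CPM in Drp1_WT. Tomm5 had the fewest counts of all members (0.428 ± 0.205 CPM in Drp1_KO, 0.514 ± 0.418 CPM in Drp1_WT) and was counted in 31 of 36 oocytes.

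Tomm34, a cytosolic factor that works with chaperones to deliver precursors, averaged 111 ± 18.5 CPM in Drp1_KO and 108 ± 11.8 CPM in Drp1_WT. Samm50 is the channel of the outer membrane sorting machinery, which inserts barrel proteins. It had 16.4 ± 2.1 CPM in Drp1_KO and 19.4 ± 3.18 CPM in Drp1_WT (log2 fold change -0.24, SE 0.16, unadjusted p = 0.145). Its partners Mtx1 and Mtx2 are the metaxins. Mtx1 averaged 55.3 ± 6.79 CPM in Drp1_KO and 54.5 ± 3.09 CPM in Drp1_WT. Mtx2 stood at 84.3, 77.2, 83.4 and 89.1 CPM in Drp1_KO mice, against 73, 78.1, 80.8, 69.1 and 94.3 CPM in Drp1_WT mice, so the Drp1_KO range lay inside that of Drp1_WT.

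The small TIM proteins Timm9, Timm10 and Timm13 are chaperones of the intermembrane space that escort hydrophobic carriers and barrel precursors. Timm9 had 614, 561, 538 and 860 CPM in Drp1_KO mice a to d, against 432, 572, 539, 449 and 694 CPM in Drp1_WT mice 1 to 5. The highest mouse of each label was d or 5, the mice of tubes 27 to 30, and the groups overlapped (log2 fold change 0.26, SE 0.17, unadjusted p = 0.144). Timm10, its partner in the hexamer, averaged 19.5 ± 3.01 CPM in Drp1_KO and 17.8 ± 5.89 CPM in Drp1_WT. Timm13 averaged 64.4 ± 9.67 CPM in Drp1_KO and 65.6 ± 12.5 CPM in Drp1_WT. Per length, Timm10 stood at 23.9 CPM per kb in Drp1_KO and 21.8 in Drp1_WT, below Timm9. The log2 ratio of Timm9 to Timm10, in CPM and not per length, was 4.98 ± 0.27 in Drp1_KO mice and 4.96 ± 0.22 in Drp1_WT mice.

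In the inner membrane, the presequence channel is built around Timm23 and Timm17a, with Timm50 as receptor and Timm21 as the subunit that links it to the outer membrane. Timm21 had 73.9, 113, 64.9 and 104 CPM in Drp1_KO mice a to d, against 48.3, 70.8, 68.6, 61.4 and 85.1 CPM in Drp1_WT mice 1 to 5. Mice b and d were above every Drp1_WT mouse, while a and c lay within their range (log2 fold change 0.41, SE 0.19, unadjusted p = 0.0452, adjusted p = 0.508). The value of mouse b rests on tube 10, which held 282 CPM: the mean over the oocytes of mouse b was 116 CPM with it and 74.1 CPM without it. Without tube 10 the log2 fold change was 0.24 with an unadjusted p of 0.186.

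Timm17a had 787, 707, 748 and 1099 CPM in Drp1_KO mice, against 607, 757, 788, 606 and 975 CPM in Drp1_WT mice (log2 fold change 0.16, SE 0.17, unadjusted p = 0.349). Again d and 5 were the highest of their labels, and the ranges overlapped. Timm23 was counted at 6.32 ± 0.675 CPM in Drp1_KO and 6.38 ± 1.01 CPM in Drp1_WT. This level is uncertain, because 95.6% of its longest coding transcript is near identical to 4 other annotated genes, among which reads may be split or dropped. Timm50 averaged 77.4 ± 7.4 CPM in Drp1_KO and 86.9 ± 8.36 CPM in Drp1_WT (log2 fold change -0.17, SE 0.11, unadjusted p = 0.155).

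The import motor pulls precursors into the matrix by means of the HSP70 Hspa9, held at the channel by Timm44, with the J-protein Dnajc19 and the nucleotide exchange factor Grpel1. Hspa9 had 216, 200, 191 and 162 CPM in Drp1_KO mice a to d, against 263, 195, 202, 217 and 172 CPM in Drp1_WT mice 1 to 5. Mice d and 5 were the lowest of their labels, and the ranges overlapped (log2 fold change -0.13, SE 0.13, unadjusted p = 0.355). Grpel1 had the smallest standard error of the members, with 152 ± 7.25 CPM in Drp1_KO and 139 ± 11.8 CPM in Drp1_WT (log2 fold change 0.14, SE 0.10, unadjusted p = 0.19). Timm44 averaged 46.3 ± 3.92 CPM in Drp1_KO and 47.7 ± 5.71 CPM in Drp1_WT. Dnajc19 averaged 30.7 ± 8.68 CPM in Drp1_KO and 29 ± 6.26 CPM in Drp1_WT. The motor's summed level was 422 ± 13.1 CPM in Drp1_KO and 425 ± 27.6 CPM in Drp1_WT.

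Pmpca and Pmpcb encode the subunits of the peptidase that removes presequences. Pmpcb averaged 51.1 ± 4.41 CPM in Drp1_KO and 55.5 ± 3.83 CPM in Drp1_WT. Pmpca averaged 3.42 ± 0.931 CPM in Drp1_KO and 3.96 ± 0.937 CPM in Drp1_WT. Per length Pmpca was the lower of the pair, with 0.798 CPM per kb in Drp1_KO and 0.924 in Drp1_WT, beside 9.93 in Drp1_KO and 10.8 in Drp1_WT for Pmpcb.

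The matrix chaperonin pairs a folding chamber, Hspd1 (GRCm38, chromosome 1, 55077835 to 55088243), with its lid, Hspe1 (chromosome 1, 55088132 to 55091307). Hspe1 had 130, 129, 117 and 159 CPM in Drp1_KO mice a to d, against 92.7, 117, 105, 88.3 and 138 CPM in Drp1_WT mice 1 to 5. Drp1_KO mice were mostly higher, but mouse 5 was above 3 of them (log2 fold change 0.31, SE 0.14, unadjusted p = 0.0499, adjusted p = 0.514). Hspd1 had 95.7, 92.1, 74 and 61.8 CPM in Drp1_KO mice, against 89.7, 77.7, 77.5, 76 and 74 CPM in Drp1_WT mice (log2 fold change 0.04, SE 0.13, unadjusted p = 0.797). For Hspd1 the Drp1_KO mice lay on both sides of the Drp1_WT mice.

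The log2 ratio of Hspe1 to Hspd1 was 0.46, 0.46, 0.72 and 1.35 in Drp1_KO mice, against 0.04, 0.63, 0.46, 0.24 and 0.90 in Drp1_WT mice. Within each label the highest ratio was in mouse d or 5. Both mRNAs share sequence with annotated copies (71.1% of the Hspd1 transcript and 66.5% of the Hspe1 transcript), so their levels are uncertain. The other matrix chaperones had lower means in Drp1_KO with wide spreads. Trap1, the mitochondrial HSP90, averaged 71.2 ± 14.3 CPM in Drp1_KO and 86 ± 21.2 CPM in Drp1_WT (log2 fold change -0.27, SE 0.18, unadjusted p = 0.164). Dnaja3, a J-protein partner of Hspa9, averaged 61.1 ± 18.7 CPM in Drp1_KO and 68.6 ± 17.4 CPM in Drp1_WT.

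The proteases were the role group with the lowest median log2 fold change, -0.25, with 5 of 6 negative. The 13 other protease and processing genes listed beside the members had a median of -0.01, with 2 higher and 0 lower in Drp1_KO at an unadjusted p under 0.05. Over all genes 4.89% were higher and 4.81% lower at that level. Without Drp1_KO tube 10 the 2 genes, Immp1l (p = 0.148) and Atad1 (p = 0.0523), were no longer under it (edgeR's quasi-likelihood test). The 6 protease members summed to 181, 176, 192 and 154 CPM in Drp1_KO mice a to d, against 286, 185, 194, 233 and 182 CPM in Drp1_WT mice 1 to 5. The groups overlapped, with mice 2 and 5 below mouse c. Clpx (GRCm38, chromosome 9, 65294260 to 65330658) encodes the unfoldase that feeds the Clpp protease, and had the smallest p among the members. It stood at 46.9, 43.2, 44.8 and 39.5 CPM in Drp1_KO mice, against 64.7, 48.3, 45, 62.2 and 53 CPM in Drp1_WT mice. All Drp1_WT mice but mouse 3 were above all Drp1_KO mice (log2 fold change -0.33, SE 0.13, unadjusted p = 0.0261, adjusted p = 0.499).

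Afg3l2, a subunit of the matrix AAA protease of the inner membrane, had 41.9, 43.1, 54.3 and 39.7 CPM in Drp1_KO mice a to d, against 84.9, 48.3, 52.4, 61.8 and 46.8 CPM in Drp1_WT mice 1 to 5. Mouse 1 was the highest, and mouse c lay within the Drp1_WT range (log2 fold change -0.39, SE 0.18, unadjusted p = 0.0431, adjusted p = 0.508). Lonp1 (GRCm38, chromosome 17, 56614297 to 56626887), the LON protease that degrades oxidised matrix proteins, had 57.7, 50.3, 55.5 and 38.2 CPM in Drp1_KO mice, against 98.9, 58.6, 58.6, 71.5 and 48.6 CPM in Drp1_WT mice. Of the Drp1_WT mice, 4 were above all Drp1_KO mice and mouse 5 was below 3 of them (log2 fold change -0.41, SE 0.19, unadjusted p = 0.0509). Summed, Clpx, Lonp1 and Afg3l2 gave 146, 137, 155 and 117 CPM in Drp1_KO mice, against 248, 155, 156, 196 and 148 CPM in Drp1_WT mice, and mouse 5 was below mouse c.

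Clpp, the peptidase of the Clpx complex, went the other way in its mean: 17.1, 19.8, 16.6 and 19.0 CPM in Drp1_KO mice, against 14.6, 13.2, 16.6, 14 and 18.7 CPM in Drp1_WT mice (log2 fold change 0.23, SE 0.14, unadjusted p = 0.119). Spg7, which pairs with Afg3l2 and is known as paraplegin, was scarce, with 2.74 ± 1.12 CPM in Drp1_KO and 3.1 ± 0.988 CPM in Drp1_WT. Htra2, a serine protease of the intermembrane space, averaged 15.8 ± 0.862 CPM in Drp1_KO and 16.8 ± 3.36 CPM in Drp1_WT.

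Ubl5 encodes a ubiquitin-like protein that takes part in the mitochondrial unfolded protein response in Caenorhabditis elegans. It had 187, 325, 175 and 298 CPM in Drp1_KO mice a to d, against 141, 227, 183, 137 and 237 CPM in Drp1_WT mice 1 to 5 (log2 fold change 0.41, SE 0.21, unadjusted p = 0.076). Mice b and d were the highest. The level of mouse b rested on tube 10 (943 CPM): its mean over oocytes was 339 CPM with that tube and 188 CPM without it, and the log2 fold change without it was 0.19 (unadjusted p = 0.352). Exons of Ubl5 overlap those of Fbxl12 on the opposite strand over 54.5% of their length, and since strand is not kept by the library kits, reads of the pair cannot be told apart. Opposite-strand overlap also covers 25.6% of the exons of Htra2 (with Aup1), 21.2% of Mtx1 (with Gm43737) and 20.4% of Pmpca (with Inpp5e).

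**Figure D3:**
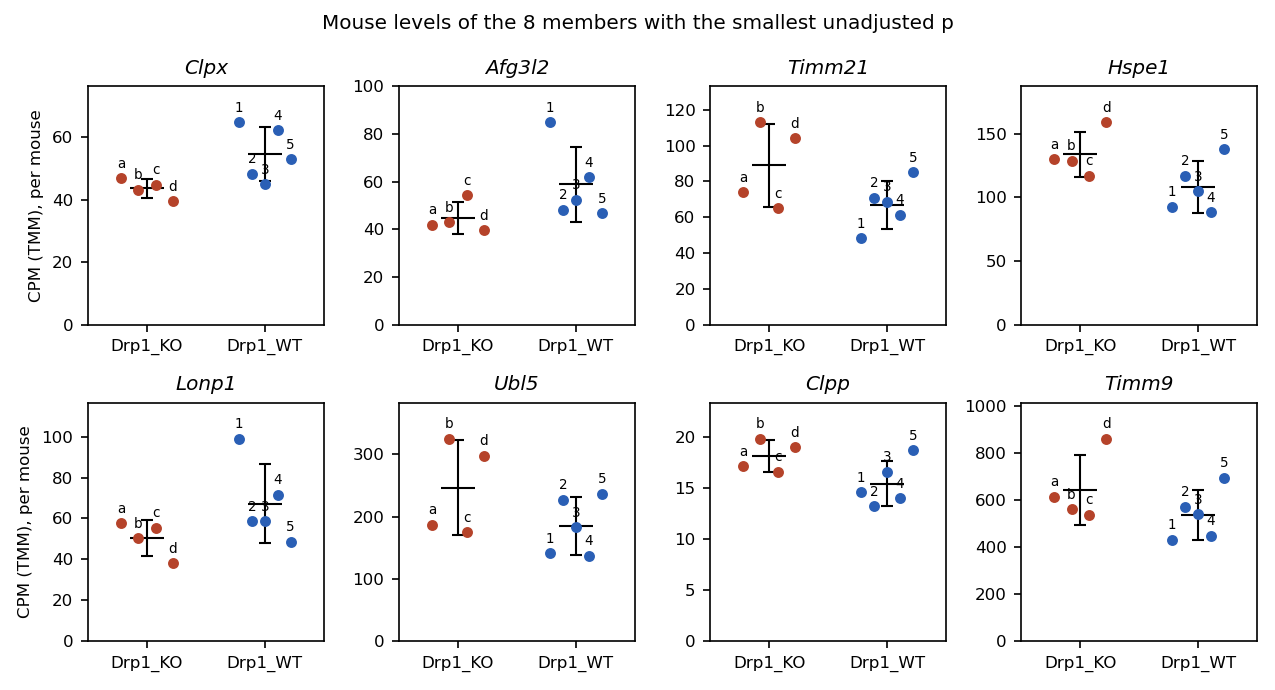
CPM per mouse (vertical axes, from 0) of the 8 members with the smallest unadjusted p, with Drp1_KO mice a to d left of Drp1_WT mice 1 to 5; black lines are the mean and SD. The mice of the 2 labels overlap in all 8, and Clpx has a Drp1_KO range of 39.5 to 46.9 CPM, against 45 to 64.7 CPM in Drp1_WT.

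The estimates for these members moved with the libraries included. For Clpx the log2 fold change was -0.29 without Drp1_KO tube 10 (unadjusted p = 0.0388), -0.22 without Drp1_WT tubes 11 to 15 (p = 0.192) and -0.19 without both and Drp1_WT tube 29 (p = 0.266). Tubes 11 and 12 are of mouse 3 and tubes 13 to 15 are all of mouse 4, so the last 2 fits compare 4 mice with 4. In the same order Lonp1 gave -0.38, -0.31 and -0.26, with unadjusted p of 0.0709, 0.209 and 0.284. Afg3l2 gave -0.37, -0.28 and -0.25, with p of 0.0536, 0.233 and 0.279. The sign of these 3 proteases was negative under all 23 alternatives. Hspe1 gave 0.30 (p = 0.0523), 0.17 (p = 0.277) and 0.18 (p = 0.225) in these 3 fits, so for each of the 4 the size was smaller without tubes 11 to 15. With the tube set (1 to 15 or 27 to 30) as a term, the estimates were close to those reported. In that fit 6 members had an unadjusted p under 0.05 (edgeR's quasi-likelihood test), and 0 an adjusted one. Among the 6 were Timm9 at 0.22 (p = 0.0439), Lonp1 at -0.39 (p = 0.0198) and Hspe1 at 0.29 (p = 0.0119). Over all 12812 genes, 889 were higher and 898 lower at that unadjusted level, beside 626 and 616 in the fit reported. Within tubes 1 to 15 alone, Hspe1 was at 0.32 (p = 0.0226), Lonp1 at -0.39 (p = 0.0408), Afg3l2 at -0.41 (p = 0.0455) and Clpx at -0.29 (p = 0.0687).

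The oocytes of tubes 11 to 15 labelled Drp1_WT, low in Dnm1l, lay at one end for several members, although all 34 overlapped with the other Drp1_WT oocytes. Lonp1 averaged 81.5 CPM in these 5 and 61.2 CPM in the other 13. Afg3l2 averaged 72.5 CPM in the 5 and 53.4 CPM in the 13, and Clpx 65.2 CPM in the 5 and 50.6 CPM in the 13. Timm9 went the other way, with 467 CPM in the 5 and 596 CPM in the 13, as did Ubl5 (143 CPM in the 5, 213 CPM in the 13) and Hspe1 (93.8 CPM in the 5, 120 CPM in the 13). The 3 oocytes of Drp1_WT mouse 1, a mouse not low in Dnm1l (292 CPM), lay at the same end, with Lonp1 at 99.5, 113 and 91.1 CPM, Timm9 at 400, 455 and 469 CPM and Ubl5 at 143, 139 and 152 CPM.

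Much of the spread of the members among oocytes of a mouse came from tube 10 of mouse b. Without it, the members' median spread was below that of all genes. In tube 10 of mouse b, 23 of 34 members (67.6%) were the lowest of the 36 oocytes, against 42.2% of all genes tested, and 4 (Tomm5, Timm21, Timm23 and Ubl5) were the highest, 11.8% against 14.4%. Mtx2 had 0.409 CPM there and 57 to 122 CPM in the other 35 oocytes. Trap1 had 0.817 CPM, against 33.5 to 136 CPM, and Timm9 24.1 CPM, against 400 to 887 CPM. Not all members dropped: Hspd1 had 97.7 CPM and Hspa9 161 CPM in tube 10, inside the ranges of the others (48.8 to 114 CPM and 122 to 306 CPM). The median SD among oocytes of a mouse, on the log2(CPM+1) scale, was 0.526 over the members with tube 10 and 0.272 without it (all genes 0.465 and 0.372). Without it, Grpel1 (0.14), Timm17a (0.17) and Tomm22 (0.18) were the most even, and Spg7 (0.70) the least.

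**Figure D4:**
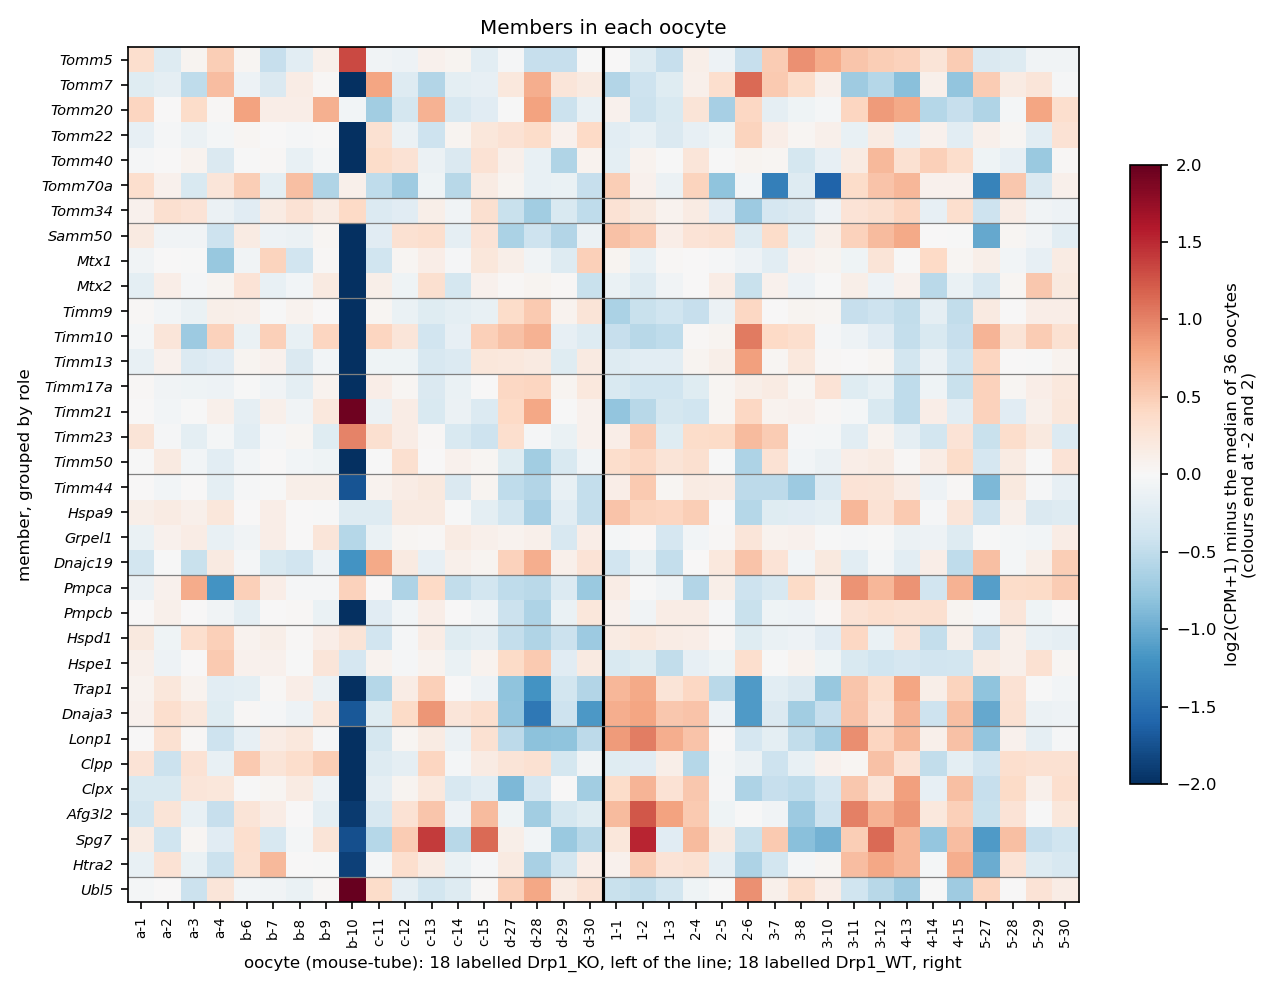
Each column is an oocyte named by mouse and tube, Drp1_KO left of the line and Drp1_WT right of it, and each row a member, grouped by role; colour is log2(CPM+1) minus the member's median over 36 oocytes, ending at -2 and 2. Tube 10 of mouse b is the dark column in which 23 of 34 members were the lowest of all. Outside it, the proteases Lonp1, Clpx and Afg3l2 and the folding factors Trap1 and Dnaja3 mostly move opposite to Timm9, Timm17a and Ubl5. Clpp and Hspe1, of the same role groups, do not (r with Timm9 of -0.08 and 0.68 within mice).

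Within mice, some members varied together from oocyte to oocyte and others in the opposite way. The measure was Pearson's r over 35 oocytes (tube 10 left out) on log2(CPM+1), after each mouse's mean was taken away, so differences between mice, and with them between labels, do not enter it. All points share the libraries, and CPM are shares of a whole. Over the 561 pairs of members the median r was 0.08, with quartiles of -0.34 and 0.49. With Timm9, 9 of the other 33 members had r over 0.5 (Ubl5 0.89, Tomm7 0.82, Timm17a 0.73, Timm21 0.72, Dnajc19 0.68, Hspe1 0.68, Timm10 0.64, Tomm22 0.60 and Timm13 0.59). Another 13 had r under -0.5. They were the chaperones Hspa9 (-0.89), Dnaja3 (-0.88) Trap1 (-0.86) and Hspd1 (-0.56), the delivery factor Tomm34 (-0.85), the import and sorting subunits Timm44 (-0.67), Timm50 (-0.62) and Samm50 (-0.51), the peptidase subunit Pmpcb (-0.69), and the proteases Lonp1 (-0.74), Clpx (-0.72), Htra2 (-0.64) and Afg3l2 (-0.62). The other 11 lay between, among them Grpel1 (0.23), Clpp (-0.08) and Tomm40 (-0.13). Of the tested genes that are not members, 7.97% had r over 0.5 with Timm9 and 17.5% had r under -0.5, beside 27.3% and 39.4% of the members. Timm9 was picked from the members after these values were seen, and the 12778 other genes were not matched to the members by level. The larger shares of the members are therefore a description and not a test.

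This axis within mice ran with quantities of the libraries. Timm9 itself correlated at 0.78 with the summed CPM of 13 genes of the mitochondrial genome, at -0.59 with the number of genes detected and at -0.34 with the log2 total count, all within mice over the same 35 oocytes. Across members, r with Timm9 had a Spearman correlation of -0.30 with exon length. The part of these quantities in the axis was not tested.

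The axis also ran with the difference between labels. Of the 9 members with r over 0.5 with Timm9, 8 had a positive log2 fold change of Drp1_KO over Drp1_WT, and of the 13 under -0.5, 11 had a negative one. Over the 33 members the Spearman correlation of r with the log2 fold change was 0.71, and 0.76 with the fold change fitted without tube 10. Over the 12778 tested genes that are not members it was 0.45. Members are not replicates and both measures come from the same oocytes, so these are descriptions. The mice of tubes 27 to 30 lay at the Timm9 end: d and 5 were both the highest of their labels in 8 members (23.5%, against 16.1% of all genes), Timm9, Timm17a and Hspe1 among them. Both were the lowest in 7 (20.6%, against 16%), among them Hspa9, Dnaja3, Lonp1 and Afg3l2.

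Pairs whose proteins work together ranged from high to no likeness. Lonp1 and Afg3l2 had r = 0.89 within mice, and Clpx had 0.63 with Lonp1 and 0.58 with Afg3l2. Clpx and its own peptidase Clpp had 0.27. The small TIM genes had 0.64 (Timm9 and Timm10), 0.59 (Timm9 and Timm13) and 0.67 (Timm10 and Timm13). Hspd1 and Hspe1, partners in one chaperonin that share a promoter region, had -0.03, and Timm17a and Timm23 had -0.02, with the copies of Timm23, Hspd1 and Hspe1 as a limit. Pmpca and Pmpcb had 0.13, at the low counts of Pmpca.

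**Figure D5:**
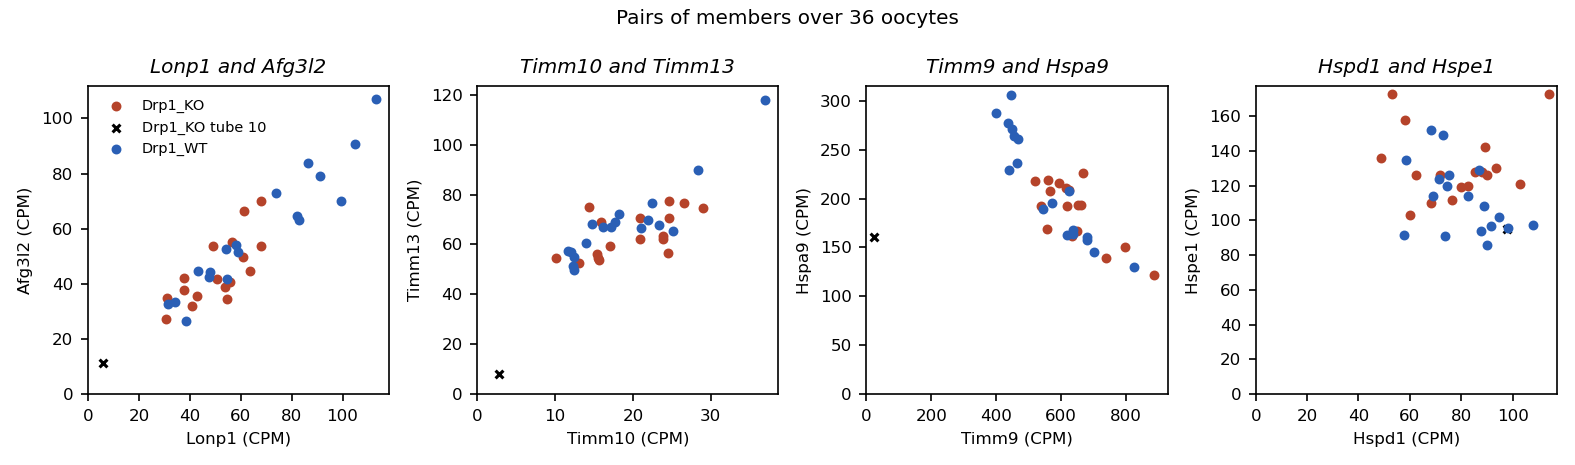
CPM of pairs of members in each of 36 oocytes (Drp1_KO red, Drp1_WT blue, tube 10 of mouse b a black cross). Oocytes high in Lonp1 are high in Afg3l2, and those high in Timm10 are high in Timm13. Outside tube 10, those high in Timm9 are low in Hspa9. On log2(CPM+1), Hspd1 and Hspe1 have r = -0.27 over all 36 oocytes, and -0.03 within mice without tube 10.

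Beyond the members, 48 other genes of import, processing, cytosolic chaperoning and mitochondrial stress were listed, and 44 passed the filter. Of these, 0 differed at an adjusted p under 0.05 (smallest 0.471), and 4 had an unadjusted p under 0.05, 2 higher and 2 lower in Drp1_KO, which is 9.09% of those tested, beside 9.69% of all genes; the median log2 fold change was 0.03. Mtch1, an outer membrane insertase, had 14.3, 13.8, 17.4 and 11 CPM in Drp1_KO mice a to d, against 29.4, 23.1, 19.8, 20.8 and 16.4 CPM in Drp1_WT mice 1 to 5. Mouse c alone was above the lowest Drp1_WT mouse (log2 fold change -0.63, SE 0.18, unadjusted p = 0.00427, adjusted p = 0.471). Hsp90ab1, a cytosolic HSP90, averaged 272 ± 36.1 CPM in Drp1_KO and 335 ± 34.4 CPM in Drp1_WT (log2 fold change -0.30, unadjusted p = 0.023). Its paralogue Hsp90aa1 averaged 2113 ± 224 CPM in Drp1_KO and 1775 ± 206 CPM in Drp1_WT (log2 fold change 0.25, unadjusted p = 0.0508). Immp1l, a subunit of the inner membrane peptidase, averaged 271 ± 80.8 CPM in Drp1_KO and 188 ± 51.2 CPM in Drp1_WT (log2 fold change 0.53, unadjusted p = 0.0305), and without Drp1_KO tube 10 its log2 fold change was 0.32 (p = 0.148). Atad1, the ATPase that extracts misplaced proteins from the outer membrane, averaged 663 ± 83.3 CPM in Drp1_KO and 557 ± 32.4 CPM in Drp1_WT (log2 fold change 0.25, unadjusted p = 0.0392). Timm8a1, another small TIM chaperone, averaged 12.1 ± 2.29 CPM in Drp1_KO and 9.73 ± 1.38 CPM in Drp1_WT (log2 fold change 0.32, unadjusted p = 0.0838).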

How the data were processed

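The authors deposited a table of read counts per gene and oocyte, whole numbers with no normalisation. Per the submitters' processing notes, STAR, Picard and featureCounts of Subread 1.5.2 were used with GRCm38; for the annotation release, strand setting and multiply matching reads, these sources give nothing. Per the labels' protocols, reads were single-end of 100 bases, from SMARTer cDNA and Nextera XT libraries. Without molecular identifiers, the counts are of reads and not of molecules. The SE and SD given are over mice, so they include differences between mice. The exception is the SD among oocytes of a mouse, which leaves those differences out.

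Counts were summed per mouse (labels' mouse identity) and fitted with edgeR 4.0.16 (filterByExpr, TMM, robust quasi-likelihood; 4 against 5 mice; common biological coefficient of variation 0.214), with Benjamini-Hochberg adjustment over 12812 genes and a threshold of 0.05. The fit was tested on simulated data. DESeq2 1.42.0 and limma 3.58.1 were alternatives (limma-voom on oocytes had the mouse as a random effect). Names, exon lengths, overlaps and near-identical copies (at least 98% identity over 100 bases, blastn 2.17.0) came from GENCODE. No protein sequence is printed.

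All 34 members are named by role; mouse values are given for the 8 with the smallest p and for the most abundant per length in each role group of 3 or more, and up to 6 other pathway genes with the smallest p. Values of Hspd1, and the likeness to Timm9, were chosen after their values were seen. Members and lists were chosen with earlier results of these data known. Tube 10, tubes 11 to 15 and tube 29 were left out in alternatives because earlier results set them apart. That the mice of a label are separate animals comes from the labels.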

Additional observations from a re-analysis of the deposited data

Results flagged for a closer look

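In groups of 4 or 5 mice, 6 values stood far from the others of their label, of 82 groups examined over members and pathway genes; chance gives about 1 in 20. Tomm7 had 106 CPM in Drp1_KO mouse d, against 62.8 to 67.6 CPM in the other Drp1_KO mice. Tomm22 had 239 CPM in Drp1_KO mouse d, against 158 to 167 CPM. Spg7 had 4.41 CPM in Drp1_KO mouse c, against 2.02 to 2.27 CPM. Timm44 had 57.4 CPM in Drp1_WT mouse 1, against 43.1 to 47.2 CPM in the other Drp1_WT mice. Hspd1 had 89.7 CPM in Drp1_WT mouse 1, against 74 to 77.7 CPM. Atad1 had 501 CPM in Drp1_WT mouse 2, against 562 to 581 CPM.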

How the results depend on the processing

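Under all 23 alternatives 0 members passed the adjusted threshold. Over all genes it was passed by 2 in the fit reported, 4 with tubes 1 to 15 only, 38 with DESeq2, 10 with limma-voom on oocytes, and 1 to 3 when a mouse was left out. Members at an unadjusted p under 0.05 numbered 4, but 6 with the tube set as a term, 5 with no filter on low counts, 1 without Drp1_KO tube 10, 0 without Drp1_WT tubes 11 to 15, 0 without these, tube 10 and Drp1_WT tube 29, and 0 to 9 with a mouse left out (9 without mouse 5, 0 without d, 1 or 4, 1 without b). The count over all genes moved as well. Higher and lower genes at that level numbered 626 and 616 of 12812 in the fit reported, and 889 and 898 of 12812 with the tube set. They numbered 485 and 609 of 12806 without tube 10, and 349 and 388 of 12622 without Drp1_WT tubes 11 to 15. Without mouse 5 they were 983 and 1013 of 12670, and without mouse d 424 and 425 of 13039. The members' median log2 fold change of 0.00 was -0.09 with library size only (all genes also -0.09), -0.05 with tubes 1 to 15 only, -0.05 with limma-voom, -0.08 with limma-trend, and -0.05 to 0.05 with a mouse left out. The median spread within mice was 0.53, and 0.27 without tube 10; the cause of the other changes was not tested. Of 770 member values under alternatives, 702 kept their sign; 68, in 16 members, did not. No paired analysis was possible because the mice of the 2 labels share no identifiers; the tube set as a term is the nearest fit.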
